A study of Mus musculus with 9 samples.

Results

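The genes described here code for proteins of peripheral organs that the medullary epithelium of the thymus also transcribes: caseins of milk, plasma proteins of the liver, lectins and carriers of the gut, salivary proteins and islet hormones. Members were the probe sets annotated to exactly 1 gene symbol on a list of 33 symbols. In all, 32 of the 33 genes had such a probe set, of 18193 genes on the array with one. Spt1, a salivary protein gene, was found under its current RefSeq symbol Mucl2, and Mup4 was not analysed here. The 32 genes had 50 probe sets. A log2 value of 4 was taken as the detection level, and 18 of the 32 genes reached it on at least 3 of the 9 arrays and were tested. The other 14 stayed below it on 7 or more arrays and are described as dim.

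Medullary thymic epithelial cells transcribe a great many genes that elsewhere belong to single organs, so that developing T cells that recognise those products are deleted or diverted before they leave the thymus. The nuclear protein AIRE and the transcription factor FEZF2 drive much of this transcription, and each such gene is usually active in only a small share of the cells. Some medullary cells also take up programmes that resemble those of gut, liver, skin, muscle or endocrine cells, with the transcription factors of those organs.

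The study measured transcripts of CD45-depleted thymus cells, which its labels call non-hematopoietic stroma, on 9 Affymetrix mouse genome arrays. Mice were female C57BL/6J animals of 6 to 8 weeks. The 3 groups of 3 arrays were untreated mice, and mice at day 4 and at day 7 after SL-TBI, in this field sublethal total body irradiation, at 550 cGy from a cesium source and without a transfer of hematopoietic cells. Cells of several mice were pooled, and the labels do not say whether arrays of a group came from separate pools, so the p-values measure the spread between these samples, which may be technical. Medullary cells were not sorted. Ptprc, the gene of CD45, still had means of 12.22 in untreated, 4.64 at day 4 and 9.51 at day 7. In such mixed samples fewer medullary cells, a changed share of other cells and less RNA per cell cannot be told apart. Each value is the authors' deposited log2 expression value. A gene was read by its brightest probe set, and levels are not compared between genes.

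Between 42.1% and 44.2% of probe sets reached the detection level on each array. All 11 measured genes of a list of medullary regulators were tested. Aire and Fezf2 were among them, at means of 9.28 and 10.10 in untreated mice. Which cells of the mix gave the transcripts of this list was not tested. Untreated replicate 3 stood apart. It was the lowest untreated array for 18 of the 18 tested antigen genes, against 42.2% of all 10937 genes tested, and lay below the mean of the other untreated arrays by a median of -1.39. Day 4 replicate 3 was the lowest day 4 array for 14 of the 18 genes (44.4% of all genes), with a median of -0.86. Results are therefore also given without these arrays. The median standard deviation of the antigen genes was 0.82 in untreated, 0.51 at day 4 and 0.25 at day 7, against 0.18, 0.13 and 0.11 for all genes.

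At day 7 nearly the whole tested set was lower than in untreated mice, and most of it was also lower than at day 4. Of the 18 tested genes 17 were lower at day 7 (limma with Benjamini-Hochberg adjustment, threshold 0.05) and 0 were higher, with a median difference of -2.94 on the log2 scale. Over all genes tested 22.0% were called lower, 32.1% were called higher, and the median was 0.09. At day 4 the count was 4 of 18 lower and 0 higher, with a median of -0.41, against 21.4% called lower, 41.8% called higher and a median of 0.20 over all genes, so that the share at day 4 was near the background. Between day 4 and day 7 12 of 18 genes were lower (median -2.17, against -0.10), where 17.6% of all genes were, and 0 were higher, where 9.78% of all genes were. The comparisons with untreated share the untreated arrays, and those of day 4 and day 7 share arrays as well. Crp and Csn1s2a passed the filter only through untreated arrays, so a fall was the only change the filter let them show.

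**Figure D1:**
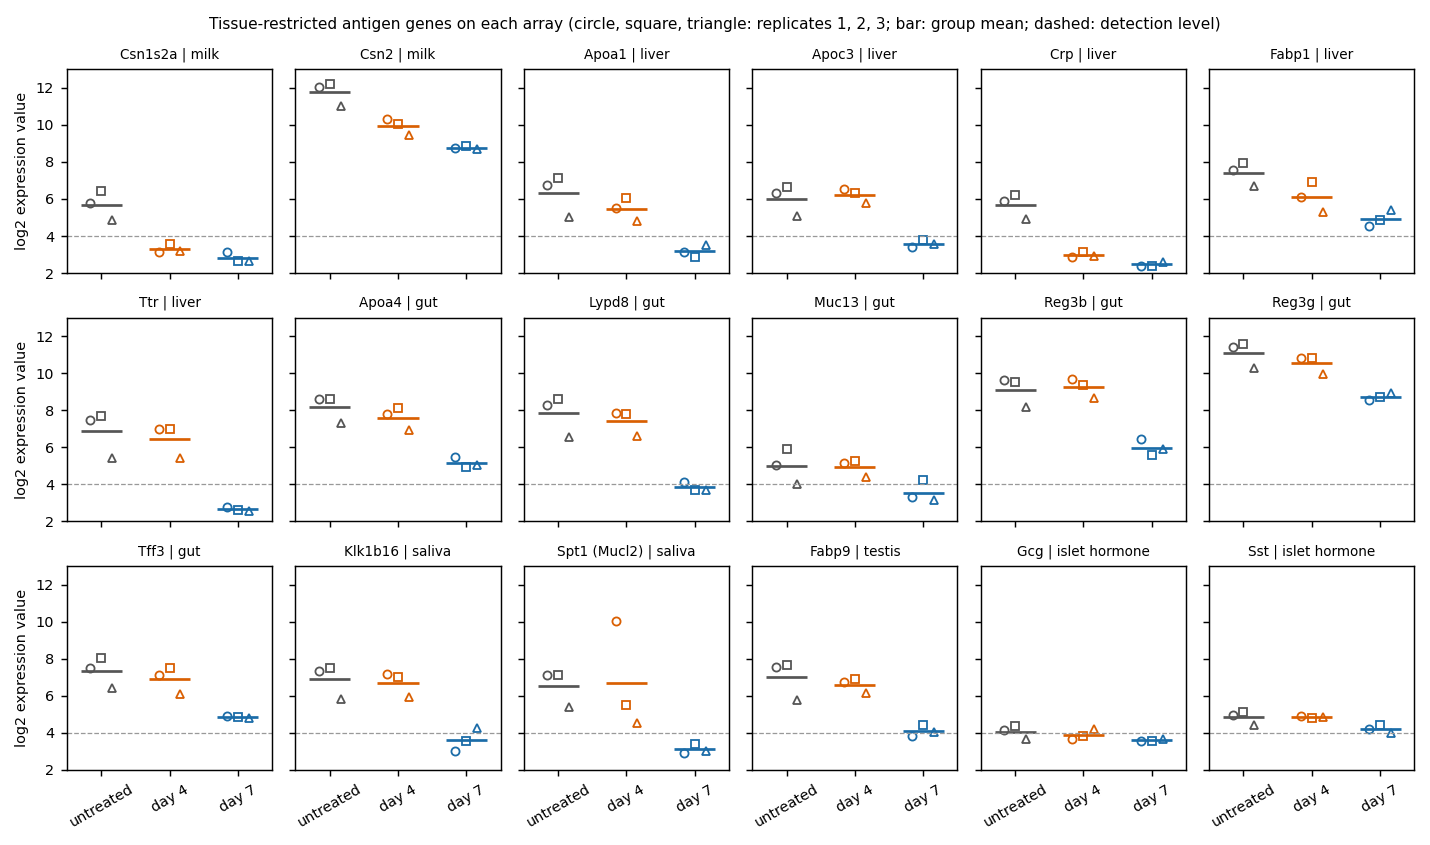
Log2 expression value (vertical axis) of the 18 tested antigen genes on each array, by group; markers stand for replicates 1, 2 and 3, bars for group means and the dashed line for the detection level of 4. Csn1s2a and Crp lie below the line from day 4 on, whereas Ttr, Apoa1 and Apoc3 lie above it at day 4 and below it at day 7, and the triangle of untreated replicate 3 is the lowest untreated marker in every panel.

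Of the 5 casein genes 2 were tested, Csn2 and Csn1s2a. Both were lower at day 4 and at day 7, against 21.4% and 22.0% of all genes. Caseins are the main proteins of milk, and their genes lie side by side on chromosome 5, from 87666208 (Csn1s1) to 87932550 (Csn3) in GRCm38.p6. Csn2, the gene of beta-casein, read 12.07, 12.22 and 10.996 in untreated mice, 10.31, 10.07 and 9.45 at day 4 and 8.78, 8.86 and 8.70 at day 7. The 3 groups did not overlap. It fell 3.53-fold at day 4 (difference -1.82, SE 0.32, adjusted p 0.0010) and 7.92-fold at day 7 (difference -2.99, SE 0.32, adjusted p 1.4e-04). From day 4 to day 7 it fell by a further 1.17 (SE 0.32, adjusted p 0.027). That last call was lost without day 4 replicate 1 (-0.98, 0.090) or 2 (-1.10, 0.082) and without day 7 replicate 1 (-1.16, 0.069), 2 (-1.21, 0.069) or 3 (-1.13, 0.076). It was also lost in the fit without a filter (0.097). Its other probe set gave -1.61 at day 4 and -2.92 at day 7. Csn1s2a, an alpha-S2-casein gene, read 5.79, 6.44 and 4.86 in untreated mice, 3.15, 3.59 and 3.19 at day 4 and 3.15, 2.64 and 2.66 at day 7. It was thus above the detection level on every untreated array and on no array after irradiation, at least 3.25-fold lower at day 4 (adjusted p 3.5e-04) and at day 7 (2.3e-04). A second probe set gave -2.91 at both times, and its 3 others were at or near the lowest value of the table, 2.27, on all arrays. The rest of the cluster was dim. Csn1s1 reached 4.04 on 1 untreated array and 2.38 to 3.34 on the others, Csn3 lay between 2.41 and 2.80, and Csn1s2b at 2.27 to 2.28.

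All 5 tested genes of the liver list were lower at day 7, against 22.0% of all genes. Crp and Fabp1 were also lower at day 4, against 21.4% of all genes. Crp, the gene of C-reactive protein, an acute-phase protein of the liver, read 5.92, 6.21 and 4.92 in untreated mice, 2.88, 3.15 and 2.95 at day 4 and 2.40, 2.37 and 2.62 at day 7. Like Csn1s2a, it was below the detection level on all 6 arrays after irradiation, so both passed the filter through untreated arrays alone. The fall was at least 3.21-fold at day 4 (difference -2.69, SE 0.28, adjusted p 5.4e-05) and at day 7 (difference -3.22, adjusted p 5.5e-05). Ttr, the gene of the thyroid hormone and retinol carrier transthyretin, read 7.48, 7.70 and 5.44 in untreated mice, 6.99, 7.00 and 5.43 at day 4 and 2.78, 2.64 and 2.57 at day 7. Its day 4 arrays overlapped the untreated ones (difference -0.40, SE 0.60, adjusted p 0.58), but it was lower at day 4 without untreated replicate 3 (-1.12, 0.0497). At day 7 it was below the detection level on every array, at least 7.33-fold lower than untreated (difference -4.21, adjusted p 5.3e-04; -4.93 without untreated replicate 3) and at least 5.56-fold lower than day 4 (adjusted p 0.0027). Of its 3 other probe sets, a pair gave -3.77 and -3.35 at day 7, while the third, read near the detection level, gave -0.54 (adjusted p 0.091).

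The apolipoprotein genes Apoa1, Apoc3 and Apoa4 lie next to each other on chromosome 9 from 46228630 to 46243458, and were lower at day 7 than at day 4. Apoa1, the main protein of high-density lipoprotein, read 6.75, 7.13 and 5.03 in untreated mice, 5.49, 6.06 and 4.79 at day 4 and 3.14, 2.86 and 3.52 at day 7. Apoc3, an inhibitor of lipoprotein lipase, read 6.34, 6.67 and 5.06, then 6.54, 6.35 and 5.77, then 3.39, 3.76 and 3.57. Apoa4, an apolipoprotein made mainly by the small intestine, read 8.60, 8.64 and 7.29, then 7.80, 8.11 and 6.91, then 5.50, 4.96 and 5.03. For each of the 3 genes the untreated and day 4 arrays overlapped, and every day 7 array lay below both groups. At day 4 the differences from untreated were -0.86 (adjusted p 0.18), 0.20 (0.67) and -0.56 (0.25), in the same order. Apoa1 and Apoa4 were called lower at day 4 without untreated replicate 3 (-1.49, adjusted p 0.0062, and -1.01, 0.027), and the Apoc3 difference turned to -0.29 (0.31). At day 7 Apoa1 was at least 4.93-fold lower than untreated (difference -3.13, adjusted p 0.0011; -3.77 without untreated replicate 3), Apoc3 at least 4.06-fold (7.9e-04) and Apoa4 8.06-fold (3.9e-04). Against day 4 the day 7 differences were -2.27 (adjusted p 0.013), -2.65 (0.0018) and -2.45 (0.0033). The Apoa1 call against day 4 was lost without day 4 replicate 2 (-1.97, 0.051) or day 7 replicate 2 (-2.12, 0.052), and without the filter (0.061). The 4 probe sets of Apoa1 gave -3.13 to -3.45 at day 7, and the other of Apoa4 gave -3.06.

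Fabp1, a fatty acid binding protein of liver and gut, was called lower at both times. It read 7.56, 7.95 and 6.71 in untreated mice, 6.09, 6.92 and 5.27 at day 4 and 4.54, 4.88 and 5.40 at day 7, so that each group overlapped the next while untreated and day 7 did not. The day 4 difference of -1.32 (SE 0.44, adjusted p 0.027) was no longer called without untreated replicate 1 (-1.24, 0.075) or 2 (-1.04, 0.088), or without day 4 replicate 1 (-1.31, 0.063) or 3 (-0.90, 0.093). That call was also lost without the filter (0.094). The day 7 fall was 5.53-fold (difference -2.47, adjusted p 0.0016). From day 4 to day 7 it differed by -1.15 (adjusted p 0.083; -1.56 and 0.033 without day 4 replicate 3). The other Fabp1 probe set gave -1.59 at day 4 and -2.68 at day 7. The remaining liver genes were dim. Alb, Apoa2, Apob, Fga and Fgb lay below 4 on all 9 arrays, with values of 2.27 to 3.58. Alb codes for serum albumin, Apob for the structural protein of low-density lipoprotein, and Fga and Fgb for fibrinogen chains. The third fibrinogen gene, Fgg, lies in the same cluster on chromosome 3 (83007724 to 83049863) and read 4.58, 5.13 and 3.55 in untreated mice but 2.27 to 2.68 on the 6 arrays after irradiation. It did not pass the filter. In the fit without a filter it was lower at day 4 (-1.92, adjusted p 0.0077) and day 7 (-1.81, 0.013).

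**Figure D2:**
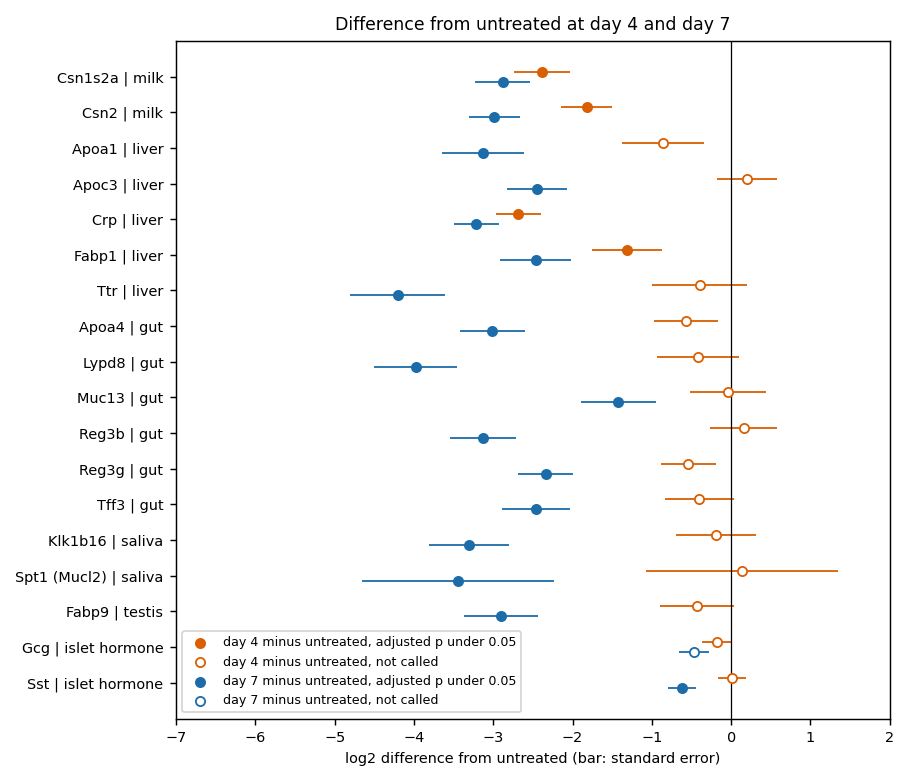
Log2 difference from untreated (horizontal axis) of the 18 tested antigen genes at day 4 and day 7, with standard errors as bars; filled markers passed an adjusted p of 0.05. At day 7, 17 genes are filled and lie left of 0; at day 4 only Csn1s2a, Csn2, Crp and Fabp1 are.

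Genes of the gut epithelium were lower at day 7. Of 6 tested gut genes, Apoa4 among them, 6 were lower at day 7, against 22.0% of all genes. At day 4 0 were called (by limma, and 0 also at an unadjusted p under 0.05), against 21.4% of all genes lower and 41.8% higher, but Apoa4, Reg3g and Lypd8 were called lower there without untreated replicate 3, and Apoa4, Reg3g and Tff3 after centring on general epithelium. Reg3b and Reg3g code for secreted lectins that act against bacteria in the intestine. Reg3b read 9.65, 9.51 and 8.15 in untreated mice, 9.70, 9.39 and 8.68 at day 4 and 6.45, 5.58 and 5.89 at day 7. Reg3g read 11.40, 11.56 and 10.29, then 10.83, 10.82 and 9.97, then 8.58, 8.72 and 8.93. The untreated and day 4 values of both genes overlapped, with differences of 0.16 (adjusted p 0.76; -0.32 without untreated replicate 3 and -0.07 without day 4 replicate 1) and -0.54 (0.20; -0.94 and 0.013 without untreated replicate 3). Every day 7 value lay below both groups. Reg3b fell 8.75-fold against untreated (difference -3.13, SE 0.42, adjusted p 3.9e-04) and 9.75-fold against day 4 (adjusted p 0.0010). Its other probe set gave -0.04 at day 4 and -3.05 at day 7. Reg3g fell 5.07-fold (adjusted p 6.0e-04) and 3.48-fold (0.0062). Reg3a, the third member of this family on the list, lay near the lowest value of the table on 8 arrays and at 3.17 on untreated replicate 2. The Reg3 genes are related in sequence, so the short probes may not keep them fully apart.

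Lypd8, which codes for a surface protein of colon epithelium that keeps flagellated bacteria at a distance, fell to about the detection level. It read 8.30, 8.62 and 6.56 in untreated mice, 7.84, 7.78 and 6.60 at day 4 and 4.13, 3.69 and 3.72 at day 7. The day 4 arrays lay within the untreated range (difference -0.42, adjusted p 0.50; -1.05 and 0.031 without untreated replicate 3). At day 7 it was 15.8-fold lower than untreated (difference -3.98, SE 0.52, adjusted p 3.4e-04; -4.61 without untreated replicate 3) and 11.8-fold lower than day 4 (0.0020). Only 1 of the 3 day 7 arrays was above the detection level and their mean, 3.85, was not, so these folds rest partly on values below it. Tff3, a trefoil peptide of goblet cells that helps to repair mucosa, read 7.52, 8.01 and 6.41, then 7.12, 7.52 and 6.11, then 4.90, 4.88 and 4.80. It was not called at day 4 (-0.40, adjusted p 0.44; -0.83 and 0.026 after centring on general epithelium) and fell 5.50-fold at day 7 (adjusted p 0.0015), with a fall of 4.17-fold after day 4 (0.0092). Muc13, a membrane mucin, read 5.03, 5.92 and 4.00, then 5.15, 5.29 and 4.39, then 3.31, 4.21 and 3.15. Its other probe set was dim, at 2.54 to 2.97. On the brighter probe set the untreated and day 7 arrays overlapped. The day 7 difference of -1.42 (adjusted p 0.031) was lost without untreated replicate 1 (-1.40, 0.078) or 2 (-0.96, 0.088), or day 7 replicate 1 (-1.30, 0.090) or 3 (-1.22, 0.10). That call was also lost after quantile normalization (-1.24, 0.061) and without the filter (0.11). The difference from day 4 was -1.38 (adjusted p 0.059), called without untreated replicate 2 (0.028) or 3 (0.022). Fabp2, the intestinal fatty acid binding protein, was dim: it read 4.43, 4.89 and 3.05 in untreated mice and 2.298 to 2.89 on the 6 later arrays, and the fit without a filter called it lower at day 4 (-1.52, adjusted p 0.040) and day 7 (-1.79, 0.027). Tff2, a trefoil peptide of the stomach, lay between 2.83 and 3.53.

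The salivary genes were low at day 7. Klk1b16, a kallikrein protease of the submandibular gland, read 7.34, 7.48 and 5.85 in untreated mice, 7.20, 6.99 and 5.91 at day 4 and 2.996, 3.53 and 4.23 at day 7. The first 2 groups overlapped fully (difference -0.19, adjusted p 0.76), and the difference turned to 0.03 without untreated replicate 1, 0.10 without untreated replicate 2 and 0.20 without day 4 replicate 3. At day 7 it was 9.87-fold below untreated (adjusted p 7.6e-04) and 8.64-fold below day 4 (0.0031). Here too 1 of 3 day 7 arrays was above the detection level and the mean, 3.59, was below it. The kallikrein family holds many near-identical genes, so this probe set may also read relatives of Klk1b16. Spt1 (Mucl2), a secreted salivary protein whose thymic transcription is known to depend on AIRE, varied most between arrays of a group. It read 7.11, 7.14 and 5.40 in untreated mice, 10.04, 5.49 and 4.54 at day 4 and 2.89, 3.40 and 3.04 at day 7. Day 4 replicate 1 was thus higher than every untreated array while the other day 4 arrays lay below untreated replicates 1 and 2, and the day 4 standard deviation was 2.94. The day 4 difference of 0.14 (SE 1.21, adjusted p 0.93) became -1.54 (0.037) without that array and -0.44 (0.80) without untreated replicate 3. All 3 day 7 arrays were below the detection level, at least 5.87-fold lower than untreated (difference -3.45, adjusted p 0.037). That call was lost in 5 of the 9 fits that left out an array, without untreated replicate 1 (-3.17, 0.10) or 2 (-3.15, 0.090) and without any day 7 array (-3.34 to -3.59, 0.074 to 0.090). It was also lost without the filter (0.12). Against day 4 the adjusted p was 0.055, and 0.042 without day 4 replicate 1 (-1.91) and 0.027 without day 4 replicate 3 (-4.66).

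Fabp9, a fatty acid binding protein of the testis, was lower at day 7. It read 7.58, 7.68 and 5.75 in untreated mice, 6.72, 6.89 and 6.13 at day 4 and 3.83, 4.42 and 4.07 at day 7. It was 7.45-fold below untreated at day 7 (difference -2.90, adjusted p 9.6e-04; -3.52 without untreated replicate 3) and 5.55-fold below day 4 (0.0060), while day 4 and untreated overlapped (-0.43, adjusted p 0.45; -1.05 and 0.0060 without untreated replicate 3). The other probe set of Fabp9 was dim, at 2.28 to 3.21. Of the 4 islet hormone genes 2 were tested, both near the detection level, where differences are compressed. Sst, the gene of somatostatin, read 4.97, 5.11 and 4.42 in untreated mice, 4.90, 4.79 and 4.83 at day 4 and 4.23, 4.41 and 4.01 at day 7. The day 7 fall was 1.53-fold (difference -0.62, SE 0.18, adjusted p 0.017), not called without untreated replicate 1 (-0.55, 0.060) or day 7 replicate 3 (-0.51, 0.063), after quantile normalization (-0.41, 0.11) or without the filter (0.053). Against day 4 it fell by 0.62 (adjusted p 0.031), a call lost in 5 of the 9 fits that left out an array: day 4 replicate 1 (-0.59, 0.089), 2 (-0.65, 0.070) or 3 (-0.63, 0.069), and day 7 replicate 1 (-0.63, 0.075) or 3 (-0.52, 0.10). That call was also lost after centring on general epithelium (-0.17, 0.45), after quantile normalization (-0.54, 0.082) and without the filter (0.091). Its difference from untreated was 0.01 at day 4, -0.20 without untreated replicate 3 and -0.03 without day 4 replicate 1. Gcg, the glucagon gene, read 3.65 to 4.36 in untreated mice, 3.66 to 4.19 at day 4 and 3.56 to 3.66 at day 7, and passed the threshold in no comparison; without untreated replicate 3 it was lower at day 7 (-0.67, adjusted p 0.0079). Ins2, the insulin gene read by its probe set, lay between 2.33 and 2.87 on all arrays. Ppy, pancreatic polypeptide, read 3.10, 4.08 and 2.33 in untreated mice and was at 2.27 on all arrays after irradiation.

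The called genes fell into few patterns over the 3 comparisons. Crp, Csn1s2a and Fabp1 were lower at day 4 and day 7 and not called between these days. Csn2 was lower in all 3. A group of 11 genes was called lower at day 7 against both untreated and day 4 but not at day 4: Ttr, Apoa1, Apoc3, Apoa4, Tff3, Reg3b, Reg3g, Lypd8, Klk1b16, Fabp9 and Sst. Muc13 and Spt1 were called lower at day 7 against untreated alone, and Gcg in none. The share of all genes with each of these joint patterns was not counted. Whether the patterns are more frequent among the antigen genes than among all genes was therefore not tested. At day 4 the groups did not overlap for 3 of 18 genes, all lower, against 22.9% of all genes lower and 44.7% higher. At day 7 they did not overlap for 16 of 18, all lower, against 24.9% lower and 37.5% higher, and day 7 lay below day 4 without overlap for 15 of 18, against 33.8% (17.9% lay above). The pattern at day 4 depended on untreated replicate 3: without it 10 of 18 genes were lower, against 21.7% of all genes. Without both it and day 4 replicate 3, an alternative chosen after the data were seen, 11 were, against 19.2%. At day 7 these fits gave 18 and 18, against 21.4% and 21.4% of all genes. Between day 4 and day 7 they gave 14 and 16, against 20.8% and 19.2%.

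Promoter sequences of RefSeq (GRCm38.p6) were set beside these patterns. Promoters of 14 of the 18 tested genes were searched, and those of Ttr, Apoc3, Tff3 and Fabp9 were not. The first 4 windows below belong to the genes lower at day 4, the others to Reg3 and apolipoprotein genes called lower at day 7 but not at day 4. Each is the 120 bases before the start, 5′ to 3′ on the gene's strand, with motif matches in capitals: TATAAA (the TATA box), GTTAAT (part of the site of HNF1, a liver and gut factor; ATTAAC on the other strand) or TTCNNNGAA (the site bound by STAT factors).
Crp (chr1:172697936-172698055, plus strand): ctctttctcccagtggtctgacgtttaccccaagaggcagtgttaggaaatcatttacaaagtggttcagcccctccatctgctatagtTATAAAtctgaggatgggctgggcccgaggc
Csn2 (chr5:87699426-87699545, minus strand): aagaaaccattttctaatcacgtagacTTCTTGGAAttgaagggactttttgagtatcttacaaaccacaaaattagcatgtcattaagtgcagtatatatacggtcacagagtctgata
Csn1s2a (chr5:87774330-87774449, plus strand): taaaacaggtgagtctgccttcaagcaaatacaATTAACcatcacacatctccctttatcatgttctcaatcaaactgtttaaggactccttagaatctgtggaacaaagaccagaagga
Fabp1 (chr6:71199759-71199878, plus strand): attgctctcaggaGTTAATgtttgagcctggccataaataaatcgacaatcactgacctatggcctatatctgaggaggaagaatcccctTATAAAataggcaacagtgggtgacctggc
Reg3b (chr6:78370765-78370884, plus strand): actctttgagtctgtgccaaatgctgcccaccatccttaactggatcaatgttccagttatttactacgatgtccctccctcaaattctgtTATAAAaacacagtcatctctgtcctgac
Reg3g (chr6:78468875-78468994, minus strand): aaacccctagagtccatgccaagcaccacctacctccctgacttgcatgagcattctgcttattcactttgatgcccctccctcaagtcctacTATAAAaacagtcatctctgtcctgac
Apoa4 (chr9:46240724-46240843, plus strand): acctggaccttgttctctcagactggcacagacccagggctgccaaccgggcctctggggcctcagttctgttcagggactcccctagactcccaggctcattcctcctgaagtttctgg
Apoa1 (chr9:46228510-46228629, plus strand): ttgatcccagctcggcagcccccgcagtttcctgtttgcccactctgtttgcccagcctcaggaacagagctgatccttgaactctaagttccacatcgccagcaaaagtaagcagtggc

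The Reg3b and Reg3g windows were alike in 88 of 123 aligned positions (71.5%) and shared an unbroken run of 20 bases. Over the 250 bases before the start and on both strands, TATAAA was found for 5 of the 14 tested genes (Crp, Fabp1, Gcg, Reg3b and Reg3g), against 12.4% of all 32851 promoters in the table. GTTAAT was found for 4 (Csn1s2a, Fabp1, Lypd8 and Muc13), against 6.43%, and TTCNNNGAA for 3 (Csn2, Muc13 and Reg3b), against 7.02%. CCAAT was found for 4 (Csn2, Klk1b16, Lypd8 and Spt1), against 33.8%, and CAAAGTCCA, a repeat bound by HNF4, for Muc13 alone, against 0.384%. Lypd8 and Muc13 have more than 1 start in the table. A match describes the letters in this window and was not tested as a site. Genes called at day 4 and genes called at day 7 alone both included some with TATAAA (Crp and Fabp1; Reg3b and Reg3g) and some without it.

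Aire and Fezf2, which drive antigen transcription, were both lower at day 7. Of 11 medullary regulators 7 were lower at day 7 and 0 higher (median -0.69), against 22.0% and 32.1% of all genes. Their day 7 differences ran from -1.97 to 0.19, so the list did not move as 1. At day 4, 3 were lower and 1 higher (median -0.16), against 21.4% and 41.8% of all genes, so the lower share was near the background. Centred on general epithelium, the counts were 6 and 0 at day 7, where 14.7% of all genes were lower. At day 4 they were 7 and 0, where 32.4% of all genes were lower. Both medians kept their sign. Aire fell from 9.28 in untreated to 7.96 at day 4 (difference -1.32, adjusted p 0.0047) and 7.32 at day 7 (-1.97, 8.0e-04). Fezf2 was at 10.10 in untreated and 9.93 at day 4 (-0.16, adjusted p 0.59), and fell to 9.06 at day 7 (-1.04, 0.0075). Spib, a factor of a medullary subset, fell by 1.84 at day 7 (adjusted p 7.4e-04), and the receptor gene Tnfrsf11a, which codes for RANK, fell by 1.93 (0.0028). The co-stimulatory gene Cd80 fell by 1.54 (adjusted p 0.0073) and the signalling gene Traf6 by 0.40 (0.011), the last not called after quantile normalization (0.096) or centring on general epithelium (0.11).

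**Figure D3:**
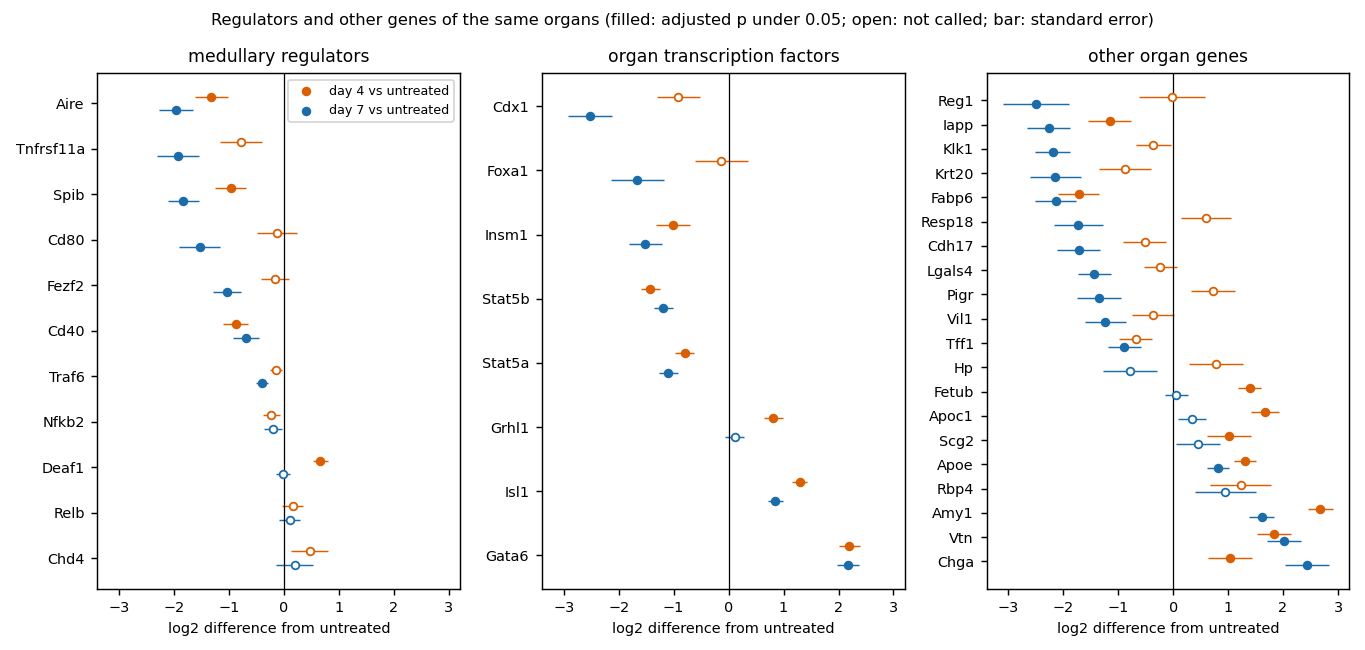
Log2 difference from untreated (horizontal axis) at day 4 and day 7 of medullary regulators, of transcription factors of the organs concerned and of other genes of these organs, with standard errors as bars; filled markers passed an adjusted p of 0.05. Aire is lower at both times, and the other organ genes lie on both sides of 0.

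Transcription factors of liver, gut, pancreas and mammary gland were mostly dim, with 8 of 22 tested. At day 7, 5 were lower and 2 higher (median -1.14), against 22.0% and 32.1% of all genes, and at day 4, 3 were lower and 3 higher (median -0.46), against 21.4% and 41.8%. Cdx1, a gut factor, fell by 2.52 at day 7 (adjusted p 8.1e-04), and Insm1, a factor of endocrine cells, by 1.51 (0.0031). Stat5b and Stat5a, which carry prolactin signals to the caseins in the mammary gland, fell by 1.19 (adjusted p 5.8e-04) and 1.10 (7.9e-04). Thymocyte genes also fell at day 7 (median -2.71). Which cells the STAT transcripts came from, and any link to the caseins here, was not tested. Gata6 rose by 2.17 (adjusted p 5.7e-05) and Isl1 by 0.85 (7.8e-04). A further list of 47 genes typical of the same organs had 40 with a probe set and 20 tested, of which 11 were lower and 4 higher at day 7 (median -1.06) and 2 were lower and 7 higher at day 4 (median 0.66), beside the same shares of all genes. Klk1, another salivary kallikrein, fell by 2.19 at day 7 (adjusted p 6.0e-04), the islet amyloid gene Iapp by 2.26 (0.0014) and the bile acid carrier gene Fabp6 by 2.14 (0.0015). Amy1, a salivary amylase, rose by 1.61 (adjusted p 5.0e-04), the matrix protein gene Vtn by 2.02 (7.9e-04) and the endocrine granule gene Chga by 2.44 (0.0011). Medians of both lists kept their sign after quantile normalization and after centring on the kept genes or on general epithelium. The last gave the further list 8 lower and 5 higher at day 4. In that fit 32.4% of all genes were lower and 1693 of 10937 were higher.

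Marker lists of other cell types moved between the groups as well. The mean of the 18 tested antigen genes was 7.42, 7.69 and 6.16 on the untreated arrays, 6.80, 6.67 and 5.84 at day 4 and 4.36, 4.41 and 4.42 at day 7. The mean of 11 medullary regulators ranged from 7.04 to 7.71, 7.01 to 7.26 and 6.52 to 6.75 in these groups, with untreated replicate 3 again the lowest. The mean of 14 genes of general epithelium, all tested, ranged from 9.16 to 9.80, 9.77 to 10.05 and 9.42 to 9.52. At day 7, 6 of the 14 were higher and 3 lower, with Cldn7 at -2.05 and Rab25 at -1.26, against 32.1% and 22.0% of all genes. Cortical epithelium, with all 10 genes tested, ranged from 11.37 to 11.55, 11.83 to 11.93 and 12.00 to 12.08. Centred on general epithelium, 17 of 18 antigen genes were lower at day 7 with a median of -2.92 (14.7% of all genes lower), and 10 of 18 at day 4 with a median of -0.84 (32.4%). Centred on medullary regulators, an alternative chosen after the data were seen, 15 were lower at day 7 with a median of -2.09 (5.98%), and 4 at day 4 with a median of -0.11 (10.2%). Endothelial genes (6 of 6 tested) ranged from 4.12 to 5.90, 5.03 to 5.93 and 7.40 to 7.46, and untreated replicate 3, the lowest in antigen genes, was the highest untreated array in them. Fibroblast genes (6 of 6) ranged from 10.38 to 10.93, 11.70 to 12.12 and 11.39 to 11.71, and thymocyte genes (7 of 8) from 9.38 to 9.80, 4.08 to 4.46 and 7.17 to 7.34. Of 6 dendritic cell genes 1 was tested and the other 5 were dim. The 3-prime minus 5-prime value of Actb, a measure of RNA quality, was 2.28 ± 0.15 in untreated, 3.13 ± 0.17 at day 4 and 2.51 ± 0.21 at day 7 (SD, n = 3; exact permutation p 0.1 and 0.2 against untreated, two-sided, where 0.1 is the smallest possible). That of Gapdh was 0.90 ± 0.13, 1.37 ± 0.24 and 0.90 ± 0.21 (exact permutation p 0.1 and 1). The part of these shifts in the fall of the antigen genes was not tested.

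**Figure D4:**
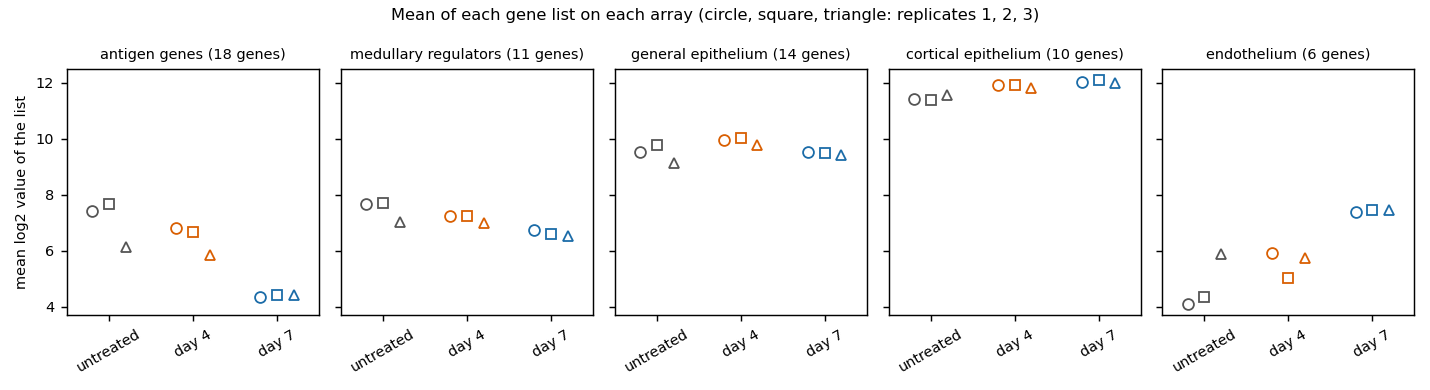
Mean log2 value of a gene list (vertical axis) on each array, by group, with markers for replicates 1, 2 and 3. The antigen genes run from 6.16 to 7.69 in untreated down to 4.36 to 4.42 at day 7. General epithelium lies between 9.16 and 10.05 and is highest on average at day 4. Cortical epithelium rises from 11.37 to 11.55 in untreated to 12.00 to 12.08 at day 7. Untreated replicate 3 is low in antigen genes and high in endothelium.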

How the data were processed

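The authors deposited 1 log2 value per probe set and array, and the submitters' processing notes name GCRMA as the tool. The log2 scale was read from the values; the tool's version is not given in the sources used here. Between 26.1% and 27.2% of values on each array sit at the lowest value, 2.27, so differences near it are compressed. Of 45101 probe sets, 34945 had 1 symbol; of several probe sets of a gene, the brightest on average over the 9 arrays was used. The 10937 genes at 4 or more on at least 3 arrays were fitted with limma 3.58.1 in R 4.3.3, with the group as the only term over all 9 arrays, and adjusted p-values (Benjamini-Hochberg, 0.05) cover all of them. Where all arrays of a group lay under 4, the fold is a lower bound against 4. The scripts were tested on simulated data. Members and lists were chosen with earlier results of these data known. All members with a passing probe set are named; of each further list, up to 6 genes with the smallest adjusted p at day 7, with Aire and Fezf2. Alternatives were the filter, the probe sets, the variance model, array weights, the normalization, left-out arrays and a replicate block. The number of arrays limits the precision. Figures were drawn with matplotlib 3.10.9.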

Additional observations from a re-analysis of the deposited data

Results flagged for a closer look

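For 12 genes the change from untreated at day 7 differed from that at day 4, tested as the difference between day 7 and day 4 (limma, adjusted p under 0.05). Over all genes 17.6% were called lower and 9.78% higher in this comparison. The log2 differences were -3.81 for Ttr, -3.56 for Lypd8, -3.29 for Reg3b, -3.11 for Klk1b16, -2.65 for Apoc3, -2.47 for Fabp9, -2.45 for Apoa4, -2.27 for Apoa1, -2.06 for Tff3, -1.80 for Reg3g, -1.17 for Csn2 and -0.62 for Sst. In each the 3 day 7 arrays lay below the 3 day 4 arrays, as in 33.8% of all genes. The Csn2 and Sst calls were each kept in only 4 of the 9 fits that left out an array, and the Apoa1 call in 7. The other flagged genes kept theirs in all 9. Without the filter on dim genes the calls of Csn2 (adjusted p 0.097), Apoa1 (0.061) and Sst (0.091) were lost.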

How the results depend on the processing

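In this paragraph a percentage after a count is the share of all genes called lower in the same fit. Of 18 antigen genes tested 17 were lower at day 7 (22.0%), and 14 to 18 when 1 array was left out (17.4% to 22.5%). It was 13 of 13 tested at a detection level of 6 (22.6%). With a gene's probe sets averaged it was 15 of 16 (23.3%), and without the filter 18 of 32 (12.3%). Between day 4 and day 7 it was 12 of 18 (17.6%), and 9 to 14 when 1 array was left out (9.23% to 20.8%). Those 3 fits gave 12 of 13 (19.0%), 12 of 16 (16.9%) and 9 of 32 (7.04%). The count at day 4 was 4 (21.4%), but 8 of 32 tested without the filter (12.6%) and 2 of 13 at a detection level of 6 (22.7%). It was 8 with array weights (25.5%), 10 after centring on general epithelium (32.4%) and 11 without both replicate 3 arrays (19.2%). Leaving out 1 array gave 3 to 10 (18.2% to 21.7%). The cause was not tested beyond the number of genes. In these fits 0 antigen genes were called higher. Correlations between same-number arrays ran from -0.12 to 0.18, and not every array was nearest to its own number. The highest same-number value was between replicate 3 of untreated and of day 4. With 3 arrays a group these values cannot settle whether replicate numbers pair the samples. With the replicate number as a block the counts were 4 (20.7%) at day 4, 17 (21.0%) at day 7 and 14 (15.2%) between them.

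Centring on general epithelium moved the median of all genes by -0.43 at day 4 and 0.45 between day 4 and day 7, and the share of calls that were higher from 66.1% to 32.3% and from 35.8% to 88.5%. That last share was 47.5% with centring on all kept genes and 46.3% with quantile normalization. Genes called lower over all genes between day 4 and day 7 numbered 1921, and 334 after centring on general epithelium.

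Differences that turned sign were nearly all small ones at day 4. With array weights Reg3b read -0.066, Sst -0.076 and Muc13 0.029. Centred on general epithelium, Sst read -0.42, Spt1 (Mucl2) -0.29, Apoc3 -0.23 and Reg3b -0.27 at day 4, and Gcg 0.16 between day 4 and day 7. Quantile normalization gave Muc13 0.056 and Gcg 0.00086. Centring on the kept genes gave Sst -0.10. Without both replicate 3 arrays Apoc3 read -0.058, Sst -0.20 and Reg3b -0.027. Centred on medullary regulators, added after the data were seen, Muc13 read 0.26, Klk1b16 0.11 and Gcg 0.13 at day 4, Gcg 0.38 and Sst 0.23 at day 7, and Crp 0.015, Csn1s2a 0.047 and Gcg 0.25 between day 4 and day 7. With 1 array left out the day 4 difference ranged from -0.20 to 0.14 for Sst, -1.54 to 1.21 for Spt1, -0.71 to 0.20 for Klk1b16, -1.12 to 0.12 for Ttr, -0.29 to 0.52 for Apoc3, -0.85 to 0.0039 for Tff3, -0.32 to 0.45 for Reg3b and -0.53 to 0.43 for Muc13. Signal near the lowest value limits what can be read for the 14 dim genes.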
